A study of Mus musculus with 8 samples.

Results

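Alveolar macrophages that had been expanded in culture before transfer (texAM) were compared with transferred alveolar macrophages that had not been cultured (tAM), both recovered from a recipient lung 4 months after transfer. The comparison was set by the groups alone and used 4 of the 8 RNA-seq libraries of the study, 2 of each kind, over all 14537 genes with enough counts to be tested out of 37310 in the deposited table. Donor cells of both groups came from wild-type C57BL/6 mice, which carry the CD45.2 allele, and recipients were wild-type mice of the C57BL/6-Ly5.1 strain, which carries CD45.1. A protocol shared by all samples gives the recipients as 8 weeks old, and the mice given expanded cells are also given as 2 months old. For texAM, cells taken from 8-week-old donors were expanded and between 0.8 and 1.0 × 10⁶ cells were given through the trachea. The labels give neither the cell number nor the donor age of tAM, nor the length of the culture that preceded transfer of the texAM cells. No depletion of the recipients' own alveolar macrophages is named, so donor cells shared the lung with host cells. The other groups of the study serve here as references. They are expanded cells collected directly after 2 months of culture (exAM), which were not sorted, and recipient-type cells sorted as CD45.1+ (HostAM). Whether the HostAM mice had received cells or buffer is not stated. Both groups of transplanted cells were sorted from whole lung by one gate for live single cells positive for SiglecF, CD11c and CD45.2. Each library was a pool of 3 mice or cultures, so p-values measure the spread between pools. Nothing in the labels says whether a pool mixes animals of several transfers.

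Alveolar macrophages live in the airspaces, take up and degrade surfactant lipid, and maintain themselves by local division with little input from blood. Their identity depends on GM-CSF and TGF-beta signals that sustain PPAR-gamma, a nuclear receptor for lipids. They handle large amounts of cholesterol, which they sense by a pair of opposed systems. The SREBP-2 factor turns on synthesis and uptake genes when sterol is low, and the LXR receptors turn on efflux genes when sterol is high. Macrophages taken into culture change many genes with their surroundings, and the comparison asks which differences were measurable in cells returned to a lung.

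The libraries of both groups were alike in depth and in their macrophage markers. Totals ran from 7733568 to 9154128 counts. Siglecf stood at 279 and 321 CPM (counts per 10⁶ counts of the TMM-scaled library) in texAM and 332 and 344 CPM in tAM, and Itgax, which encodes CD11c, stood at 617 and 658 against 678 and 734 CPM. Ptprc, the CD45 gene, read 718 and 753 CPM in texAM against 783 and 717 CPM in tAM, and gene-level counts do not tell its alleles apart. The Y-linked gene Ddx3y had 0 counts in all texAM and tAM libraries and was at 9.43 and 9.11 CPM in exAM, while Xist was present in every library. Y-linked counts thus set exAM apart from texAM, and not texAM from tAM. Over the 9512 genes at 10 CPM or more, the median absolute log2 difference between a texAM library and a tAM library was 0.16 to 0.23. Within groups it was 0.16 for the texAM pair, 0.17 for the tAM pair, 0.22 for the HostAM pair and 0.19 for the exAM pair. Any pair of an exAM and a lung library differed by 0.51 to 0.58. The share of these genes more than 2-fold apart was 2.24% to 3.6% between a texAM and a tAM library. It was 1.15% and 1.91% within the texAM and tAM pairs, 3.50% within the HostAM pair and 2.70% within the exAM pair. By the median, pairs of a texAM and a tAM library thus overlapped pairs of one group, and the HostAM and exAM pairs lay within their range. By the share over 2-fold, every pair of a texAM and a tAM library exceeded the texAM and the tAM pair. The HostAM and exAM pairs lay within the range of those mixed pairs by this share too.

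One gene, Arap2, was called different at a Benjamini-Hochberg adjusted p under 0.05, which is 0.00688% of those tested by edgeR's quasi-likelihood test on all 8 libraries. Arap2 encodes a GTPase-activating protein that switches off small GTPases of the Arf family and takes part in the control of focal adhesions and the actin cytoskeleton. Its level was 23.4 and 16.0 CPM in texAM (224 and 140 counts) and 1.86 and 2.63 CPM in tAM (16 and 21 counts). Both texAM pools lay far above both tAM pools. HostAM, at 2.76 and 4.72 CPM, lay near tAM, and exAM, at 105 and 118 CPM, lay above every lung library. The gene was 8.76-fold higher in texAM, a log2 change of 3.13 ± 0.35 (SE, 95% interval 2.35 to 3.91, adjusted p = 0.0373). In the culture comparison, exAM against HostAM, its log2 difference was 4.90. The summed level of T lymphocyte and NK cell markers was also higher in the texAM libraries (997 and 927 CPM, against 410 and 596 CPM in tAM), and the part of such RNA in the Arap2 difference was not tested. The direction and size of the Arap2 difference held under all alternatives, with log2 values of 2.83 to 3.39. With the replicate number as a block in the same test, the call was lost (adjusted p = 0.0957). The call did not hold without tAM replicate 1 (adjusted p = 0.505), without tAM replicate 2 (0.207) or without texAM replicate 1 (0.240), nor in fits of the 4 compared libraries (0.0535) or the 6 lung libraries (0.328), nor when the difference was tested against a 2-fold minimum. Over all alternatives the adjusted p ran from 1.16e-16 to 0.505.

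The Arap2 gene (ENSMUSG00000037999) lies on the minus strand of chromosome 5, from 62602445 to 62766159 in GRCm38. The sequence upstream of its RefSeq start is shown because it is the promoter of the gene that the test called. These are the 250 bases before the start in GRCm38.p6, chr5:62766178-62766427, minus strand, from RefSeq, with matches to the GC box GGGCGG, searched on both strands (CCGCCC on the other), in capitals.
Arap2 promoter: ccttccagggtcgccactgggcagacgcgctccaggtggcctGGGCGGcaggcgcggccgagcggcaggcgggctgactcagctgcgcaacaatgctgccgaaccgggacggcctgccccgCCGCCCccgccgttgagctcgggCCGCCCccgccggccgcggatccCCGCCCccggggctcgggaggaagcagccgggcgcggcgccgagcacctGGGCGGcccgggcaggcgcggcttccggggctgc
The window held 5 matches, 2 on the sense strand and 3 on the other. Windows of the same length with at least 1 match made up 32.7% of 32851 mouse promoters in the table. The Arap2 window was 80.8% G or C and held 36 CpG pairs, more than 97.4% of those promoters. These letters describe the promoter and say nothing of which factors act there.

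**Figure D1:**
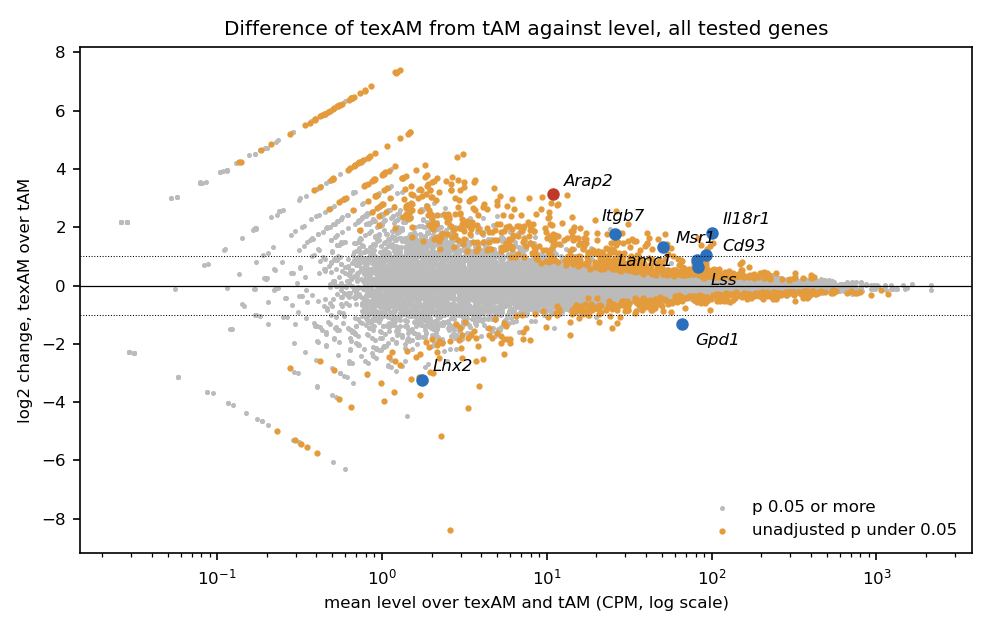
Log2 change of texAM over tAM (vertical axis) against the mean CPM over the 4 libraries (log scale) for each tested gene with a count in texAM or tAM. Orange points have an unadjusted p under 0.05, dotted lines mark 2-fold, and Arap2 (red) and 8 other genes described in the text (blue) are named. The cloud narrows toward 0 as the level rises, and 2 genes at 100 CPM or more exceed 2-fold.

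Differences of 2-fold or more could be bounded for most well-expressed genes and for almost no low ones. In 8032 genes (55.3% of those tested) the 95% interval of the log2 change lay wholly within 2-fold in either direction. At a mean of 100 CPM or more this held for 2932 of 2940 genes (99.7%), and from 10 to 100 CPM for 5003 of 6572 (76.1%). From 1 to 10 CPM it held for 97 of 4100 genes (2.37%), and under 1 CPM for 0 of 925. The median SE was 0.12 at 100 CPM or more, 0.24 from 10 to 100 CPM and 0.75 from 1 to 10 CPM. From 1 to 10 CPM, 1016 genes had an estimate over 2-fold and 35 an interval wholly beyond 2-fold, so that most estimates of that size could not be told from 2-fold or less at this depth. At an unadjusted p under 0.05, 765 genes (5.26%) were higher and 374 (2.57%) lower in texAM, and these shares are the background for every list below. The median log2 change of all genes was 0.00. Genes with over 0.5 counts per base of transcript in a library, 1330 in number, had a median of -0.08, and in 43.2% of them both texAM pools lay below both tAM pools (12.8% above), beside 20.2% and 21.9% of all genes. Lists of abundant genes are read against these values. Single genes reached no more than 21915 counts in any library. Whether duplicate reads were removed, which would narrow the differences and intervals of abundant genes, is not given in the sources used here and was not tested.

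Beyond Arap2 no gene was called, and the genes of lowest p are described here as chosen after their values were seen. Many of those higher in texAM were also higher in exAM, and texAM lay between tAM and exAM. Msr1, the class A scavenger receptor that takes up modified lipoproteins, read 87.3 and 57.7 CPM in texAM against 26.3 and 32.0 CPM in tAM, with 811 and 665 CPM in exAM. The texAM pools lay above both tAM pools and both HostAM pools (32.8 and 37.3 CPM), at a log2 change of 1.32 ± 0.20 (adjusted p = 0.118). Cd93, a C-type lectin-like receptor linked to phagocytosis and adhesion, read 132 and 117 CPM against 64.3 and 56.8 CPM, with 661 and 1016 CPM in exAM (log2 change 1.04 ± 0.18, adjusted p = 0.195). Lamc1, the laminin gamma 1 chain of basement membranes, read 105 and 106 CPM against 56.2 and 58.8 CPM, with 180 and 212 CPM in exAM. Its pools differed little within each group, and its log2 change was 0.88 ± 0.13 (adjusted p = 0.118). The unconventional myosin Myo1d read 9.19 and 8.10 CPM against 2.32 and 2.38 CPM, with 434 and 448 CPM in exAM. HostAM, at 4.41 and 8.17 CPM, overlapped texAM in this gene. Mmp12, the macrophage elastase, read 45.3 and 42.2 CPM against 27.4 and 15.7 CPM, with 666 and 568 CPM in exAM. Itgam, the CD11b integrin chain that alveolar macrophages carry at low levels in the lung, read 99.1 and 68.9 CPM against 47.0 and 47.8 CPM, with 1127 and 822 CPM in exAM. In each of these 6 genes the texAM pools were above the tAM pools and below the exAM libraries. The creatine transporter Slc6a8 (log2 change 1.23), the actin regulator Cyfip2 (0.78), the Schlafen family member Slfn5 (1.47), the integrin chain Itgb3 (1.27) and the palmitoyltransferase Zdhhc2 (1.89) also lay above tAM and below exAM, at adjusted p from 0.26 to 0.375. Slc6a8 was at 12.4 and 14.3 CPM in texAM and 9.15 and 15.1 CPM in HostAM, so that these groups overlapped.

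Genes that were abundant in culture and had 0 counts in tAM gave small traces in texAM. Elovl7, a fatty acid elongase, had 33 and 12 counts in the texAM libraries, at least 13.3-fold above tAM when 3 counts over the group are taken as the floor, against a mean of 141 CPM in exAM. The tetraspanin Tspan12 had 18 and 11 counts, at least 8.67-fold above that floor. Other culture genes left no trace. Csn2, a milk casein, stood at 327 and 308 CPM in exAM, and the collagen gene Col24a1 at 145 and 204 CPM, and both had 0 counts in all texAM, tAM and HostAM libraries.

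**Figure D2:**
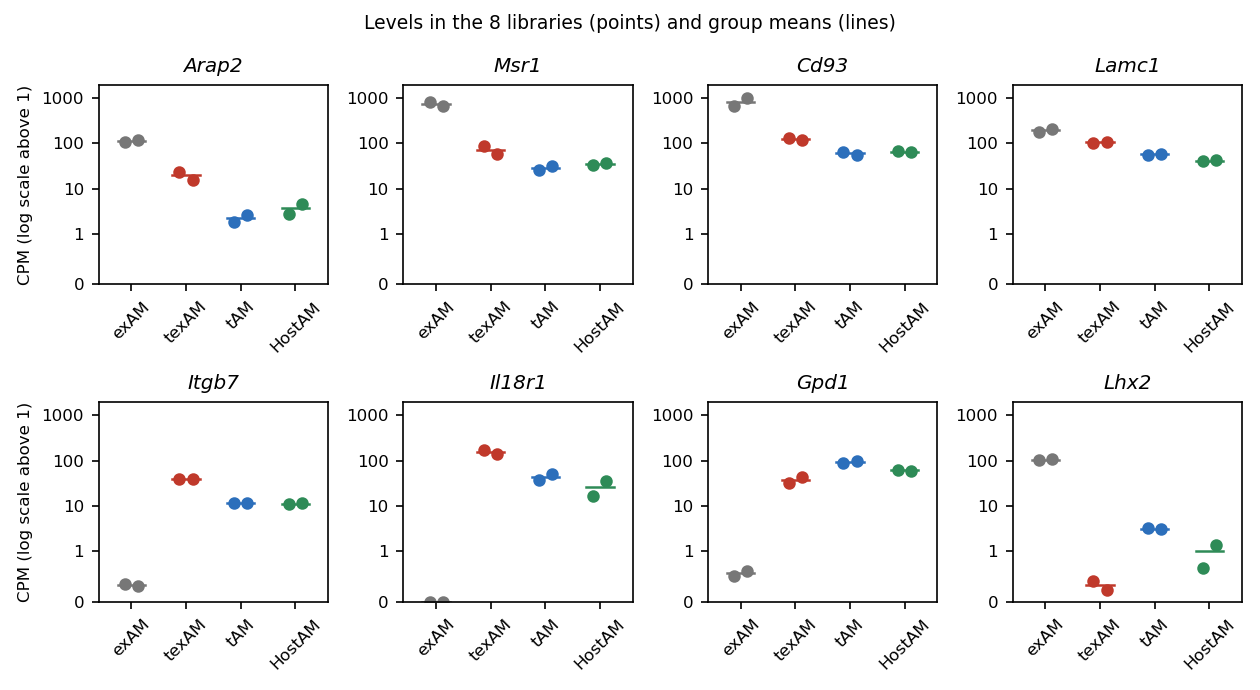
CPM of 8 genes in the 2 libraries of each group (points) with the group mean (line), on an axis that is linear to 1 and logarithmic above. Arap2, Msr1, Cd93 and Lamc1 stand in texAM between exAM and the other lung groups, Itgb7 and Il18r1 are highest in texAM and near 0 in exAM, and Gpd1 and Lhx2 are lower in texAM than in tAM.

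Some genes of low p were lower in texAM although they were higher in culture. Lhx2, a LIM homeodomain transcription factor, was far higher in exAM (102 and 110 CPM) than in lung cells but read 0.42 and 0.23 CPM in texAM against 3.25 and 3.13 CPM in tAM. These are 4 and 2 counts against 28 and 25, a log2 change of -3.23 ± 0.57 (adjusted p = 0.118). HostAM lay between, at 0.66 and 1.38 CPM. Neto2, a kainate receptor auxiliary subunit, showed the same reversal, with 0.21 and 0.46 CPM in texAM, 3.25 and 2.76 CPM in tAM and 79.4 and 107 CPM in exAM. Lmtk2, a membrane-anchored kinase, read 74.3 and 65.6 CPM in texAM against 119 and 131 CPM in tAM and was higher in exAM. Other genes differed in the direction of culture. Gpd1, the cytosolic glycerol-3-phosphate dehydrogenase that links glycolysis to glycerolipid synthesis, read 31.5 and 44.6 CPM in texAM, 88.9 and 101 CPM in tAM and 63.5 and 59.5 CPM in HostAM. It was close to absent from exAM (0.52 and 0.62 CPM). Its log2 change of -1.32 ± 0.19 (adjusted p = 0.118) left both texAM pools below every other lung pool. Itpr3, a calcium channel of the endoplasmic reticulum, read 21.8 and 22.4 CPM in texAM against 5.46 and 6.65 CPM in tAM and 24.5 and 22.7 CPM in exAM. The synaptotagmin Syt11 read 29.5 and 30.6 CPM against 9.29 and 11.3 CPM, with 20.2 and 25.9 CPM in exAM.

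DESeq2's Wald test on the same 8 libraries called more genes than edgeR did, 62 higher (0.453% of the genes given an adjusted p) and 11 lower (0.0803%). All 73 had an unadjusted p under 0.05 in edgeR's test, and 34 were called the same way in exAM against HostAM. In that contrast, edgeR called 20.9% of all tested genes higher and 23.3% lower. Msr1, Cd93, Lamc1, Myo1d, Mmp12, Itgam, Slc6a8, Cyfip2, Slfn5, Itgb7, Il18r1, Itpr3, Gpd1, Lhx2 and Lmtk2 were among them. The number of calls thus differed between tools, while the log2 changes were close: Msr1 was at 1.31 with DESeq2 and Gpd1 at -1.33.

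Over the transcriptome, little of the difference between exAM and HostAM was seen between texAM and tAM. In exAM against HostAM, 3034 genes were called higher (20.9%) and 3383 lower (23.3%), and these groups share no library with texAM and tAM. The contrast does not hold culture alone. HostAM cells were sorted from lung and of the recipient type, while exAM cells were not sorted and had Ddx3y counts that texAM and tAM lacked. The parts of culture and of these other differences in the contrast were not tested. The slope through the origin of the texAM over tAM change on the exAM over HostAM change across these 6417 genes was -0.0083, where 1 would be the whole difference and 0 none. Limited after seeing the data to genes at a mean of 10 CPM or more in HostAM, a level that uses neither texAM nor tAM, it was 0.080 for the 2424 genes higher in exAM and -0.020 for the 2452 lower in exAM. Single pairs of a texAM and a tAM library gave slopes of -0.026 to -0.0046 over all called genes. Genes raised most in culture leaned higher in texAM. Of 439 genes over 8-fold higher in exAM, 74 (16.9%) were higher in texAM and 14 (3.19%) lower at an unadjusted p under 0.05, with a median log2 change of 0.24. Estimates above 0 made up 55.8% of the 439. Among the 41 of these at 10 CPM or more in HostAM, 82.9% had an estimate above 0, the median was 0.37, and 14 were higher and 2 lower at that p, beside a median difference of 3.68 in exAM. Genes 2- to 8-fold higher in exAM had a median of 0.12 (918 genes), and those under 2-fold a median of 0.00 (1677 genes). On the other side, genes over 8-fold lower in exAM had a median of 0.14 in texAM over tAM, away from the culture level, and 122 of 941 (12.96%) were higher in texAM at an unadjusted p under 0.05. Among the 310 of these at 10 CPM or more in HostAM the median was -0.01, with 37 higher and 17 lower at that p. Of the tested markers of other cells, 16 of 25 for T lymphocytes and NK cells, 26 of 31 for lung epithelium, 10 of 25 for monocytes and other macrophages and 9 of 22 for dendritic cells were over 8-fold lower in exAM. Of the 765 genes higher in texAM at that p, 31.9% were called higher and 25.1% lower in exAM, and of the 374 lower in texAM, 19.0% were called higher and 40.6% lower in exAM.

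**Figure D3:**
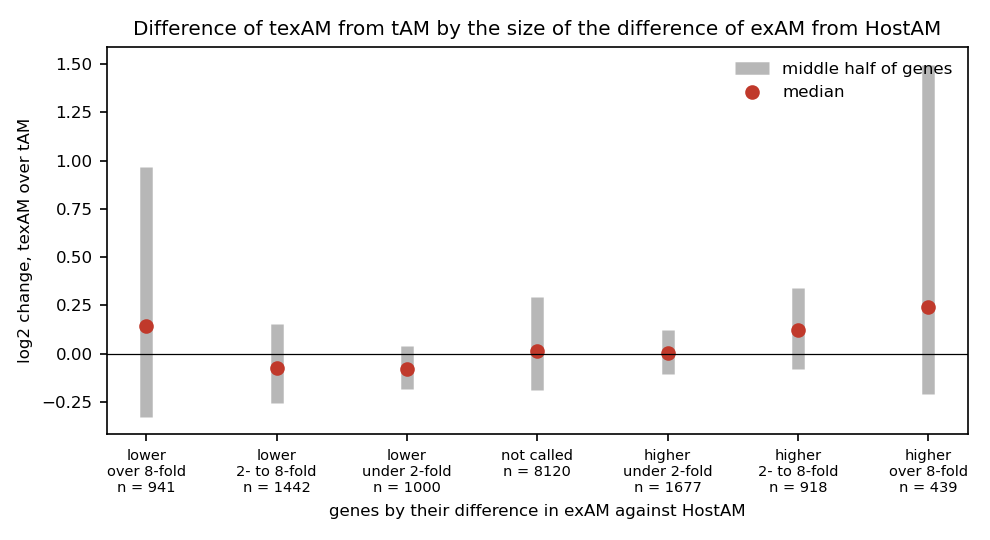
Log2 change of texAM over tAM (vertical axis) in genes grouped by the size and direction of their difference in exAM against HostAM. Points are medians and bars span the middle 50% of genes. The medians lie between -0.08 and 0.24, and the bars are widest in the outer groups, which hold many low genes.

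Genes of cholesterol synthesis leaned higher in texAM. The list holds mainly enzymes of the pathway and its regulators. None of its 24 tested members was called, 11 (45.8%) were higher and 0 lower at an unadjusted p under 0.05, and the median log2 change was 0.29 (all genes 5.26%, 2.57% and 0.00). Lss, which closes the sterol ring system, read 98.7 and 104 CPM in texAM against 63.5 and 65.6 CPM in tAM, a log2 change of 0.65 ± 0.14 (adjusted p = 0.375). HostAM lay between, at 82.9 and 69.1 CPM. Hsd17b7, a later enzyme of the pathway, read 103 and 92.6 CPM against 66.0 and 64.7 CPM. Cyp51, the lanosterol demethylase, read 179 and 170 CPM against 135 and 131 CPM. Sc5d, Stard4, Fdps, Nsdhl, Insig1 and Sqle were also among the 11, with log2 changes of 0.34 to 0.70. In 15 of the 24 members both texAM pools lay above both tAM pools, beside 21.9% of all genes, and in 0 both lay below, beside 20.2%. In exAM against HostAM the list had a median of 0.00. Leaving out any 1 of the 4 libraries left 6 to 8 members higher and 0 lower at that p, with medians of 0.26 to 0.32. The part of other cells' RNA in this list, such as that of T lymphocytes, whose markers were higher in the texAM pools, was not tested.

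Genes of the opposing sterol system leaned lower. Of 20 tested LXR targets and efflux genes, 4 were lower and 2 higher at an unadjusted p under 0.05, with a median of -0.16. In 10 of the 20 both texAM pools lay below both tAM pools, and in 2 above, beside 20.2% and 21.9% of all genes. Abca1, the transporter that exports cholesterol to apolipoproteins, read 256 and 269 CPM in texAM against 386 and 367 CPM in tAM (log2 change -0.52 ± 0.20). Mylip, a ubiquitin ligase induced by LXR, read 63.6 and 73.2 CPM against 110 and 99.1 CPM. Srebf1, which drives fatty acid synthesis, read 101 and 102 CPM against 130 and 166 CPM, and the phospholipid transfer protein gene Pltp read 72.3 and 72.1 CPM against 98.1 and 121 CPM. In all 4 genes both texAM pools lay below both tAM pools, and their adjusted p ran from 0.454 to 0.587. The members higher at that p were Ch25h, which makes a side-chain oxysterol, and Acaca, an enzyme of fatty acid synthesis. Abcg1, the other main efflux transporter, had a log2 change of -0.19 (95% interval -0.42 to 0.05). Leaving out tAM replicate 2 or texAM replicate 1 left 1 LXR list member lower at that p.

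**Figure D4:**
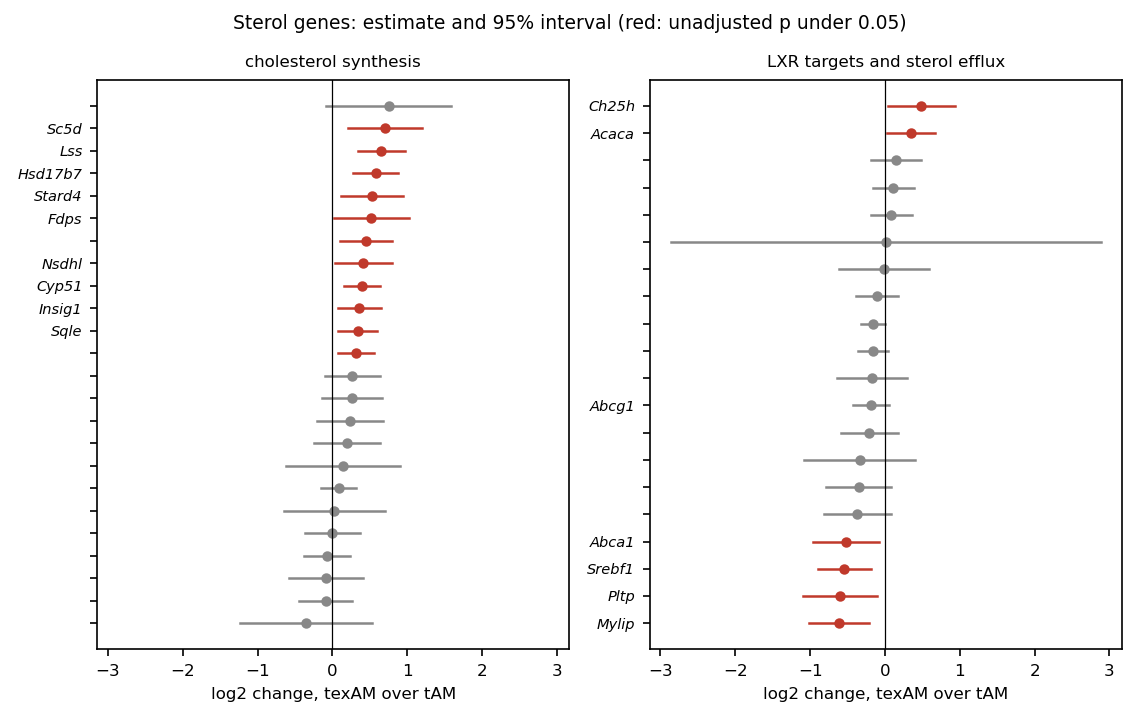
Log2 change of texAM over tAM (horizontal axis) with its 95% interval for each tested gene of cholesterol synthesis (left) and of LXR targets and sterol efflux (right), with names given for the genes described in the text. Red marks an unadjusted p under 0.05, which 11 synthesis genes reach on the higher side. On the right, 4 genes reach it on the lower side and 2 on the higher side.

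Lipid storage genes of low p were lower in texAM, as Gpd1 was. Of 23 tested members, 4 were lower and 0 higher at an unadjusted p under 0.05, with a median of -0.14. They were the droplet coat gene Plin4 (2.09 and 2.74 CPM in texAM against 11.7 and 7.27 CPM in tAM), the triglyceride lipase Pnpla2 (171 and 179 against 201 and 257 CPM), the droplet fusion gene Cidec (196 and 225 against 257 and 288 CPM) and the fatty acid carrier Fabp4 (78.2 and 74.6 against 95.4 and 93.8 CPM). Pnpla2, Cidec and Fabp4 differed by 1.24- to 1.31-fold. Lpin1, a phosphatidate phosphatase outside the list, read 280 and 332 CPM against 398 and 416 CPM (log2 change -0.41 ± 0.10, adjusted p = 0.388). In the list of fatty acid oxidation and PPAR targets, 4 of 30 were lower and 0 higher, and 2 of these 4 are Plin4 and Fabp4 again. Ehhadh and Acadvl, enzymes of peroxisomal and mitochondrial oxidation, were the others, at -0.69 and -0.54. With 1 of the 4 libraries left out, 1 to 5 storage genes and 1 to 3 oxidation genes were lower at that p, and without texAM replicate 1 it was 1 of each.

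The core programme of the tissue macrophage differed by less than 2-fold in nearly all genes, with estimates mostly just below tAM. Of 43 tested alveolar macrophage identity genes, 0 were called, 39 had a 95% interval within 2-fold, and the median log2 change was -0.12. Estimates were below 0 in 35, and both texAM pools lay below both tAM pools in 23 and above in 4. Of the 43, 34 exceed 0.5 counts per base, where the median was -0.08 and 43.2% of genes had both texAM pools lower. Pparg read 162 and 200 CPM in texAM against 203 and 199 CPM in tAM, the scavenger receptor gene Marco 196 and 211 against 217 and 245 CPM, the chitinase-like Chil3 231 and 250 against 253 and 271 CPM, and Car4 239 and 268 against 236 and 261 CPM. Cidec and Fabp4 were lower and the chemokine gene Cxcl2 was higher at an unadjusted p under 0.05. All tested members of the lists of 47 lysosomal, 52 ribosomal protein and 44 nuclear respiratory chain genes had intervals within 2-fold, and 0 of them reached that p. Their medians were -0.12, -0.12 and -0.11. Both texAM pools lay below both tAM pools in 32 lysosomal, 23 ribosomal and 17 respiratory chain genes, and above in 6, 0 and 2. Over all tested genes these shares were 20.2% below and 21.9% above. Of these lists, 34 lysosomal, 19 ribosomal and 26 respiratory chain genes exceed 0.5 counts per base. Genes over that limit had shares of 43.2% below and 12.8% above. Of 58 genes of the cell cycle and DNA replication, Bub1 was higher and Kif20a lower, with a median of -0.03.

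MHC class II genes, which were low in culture, read slightly lower in texAM than in tAM. The 14 listed genes of class II and its regulators summed to 1261 and 1384 CPM in texAM and 1476 and 1588 CPM in tAM. HostAM, at 1110 and 1227 CPM, lay below both groups. All 13 tested genes of MHC class II and its regulators had an estimate below 0, with a median of -0.27, 0 were called, and 9 had intervals within 2-fold. H2-Aa read 213 and 235 CPM in texAM, 255 and 265 CPM in tAM and 3.43 and 7.26 CPM in exAM, and H2-Ab1 read 209 and 226, 235 and 250, and 8.58 and 7.41 CPM. Ciita, the transactivator on which class II genes depend, was at 59.4 and 63.4 CPM in texAM, 68.1 and 88.5 CPM in tAM, 25.1 and 27.5 CPM in HostAM and 1.37 and 3.09 CPM in exAM. In 11 of the 13 both texAM pools lay below both tAM pools, beside 20.2% of all genes. Of the 13, 6 exceed 0.5 counts per base, where 43.2% of genes had both texAM pools lower. H2-Eb1 (-0.34) and Rfxap, a subunit of the factor that binds class II promoters (-0.76), were lower at an unadjusted p under 0.05, and 0 were without tAM replicate 2 or without texAM replicate 1. The median class II difference between exAM and HostAM was -3.39. Of 22 tested genes of MHC class I presentation, 9 had an estimate above 0 and 13 below, and the median was -0.08. That list had a median of -0.50 in exAM against HostAM.

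Markers of other cells stood at different levels in the groups, with the widest gap in T lymphocyte markers. Of 25 tested T lymphocyte and NK cell markers, 0 were called, 11 were higher and 0 lower at an unadjusted p under 0.05, and the median log2 change was 1.48. All sums of marker lists cover every member in the deposited table, tested or not, here 30 genes. The sum was 997 and 927 CPM in texAM, 410 and 596 CPM in tAM, and 316 and 483 CPM in HostAM. Both texAM pools lay above the 4 other lung pools. In exAM the sum was 426 and 381 CPM, most of it from Il7r. The pan-T gene Cd3e read 82.1 and 60.8 CPM against 26.7 and 56.9 CPM in tAM, Thy1 148 and 151 against 39.1 and 68.7 CPM, Cd4 80.2 and 62.6 against 14.7 and 32.7 CPM, and the adaptor Lat 41.5 and 36.0 against 12.1 and 14.7 CPM. Cd8a stood at 1.46 and 2.17 CPM against 2.44 and 1.63 CPM, and the killer cell gene Klrd1 was at 1.25 CPM or below in all 4 libraries. Il7r, the receptor for IL-7, read 87.2 and 75.2 CPM against 20.1 and 27.2 CPM and is also a culture gene, at 382 and 306 CPM in exAM. Cd3e and Tcf7 had 0 counts in exAM. The tAM pools differ as well: the log2 median of the list was 1.12 without tAM replicate 1 (5 members higher at that p) and 2.01 without tAM replicate 2 (15), and 1.40 without texAM replicate 1 (5). The gate requires SiglecF and CD11c, which most T cells lack. Of the 25 markers, 4 reached 1 CPM in both exAM libraries, which held no lung tissue, and 15 had 0 counts there. In bulk RNA, more cells of a type and more RNA per cell cannot be told apart.

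Several genes of low p are also known from lymphocytes. Itgb7, an integrin chain of gut-homing lymphocytes, read 40.2 and 39.6 CPM in texAM against 11.6 and 11.7 CPM in tAM and 10.9 and 11.7 CPM in HostAM (log2 change 1.78 ± 0.26, adjusted p = 0.118). The IL-18 receptor chain Il18r1 read 175 and 138 CPM against 38.1 and 51.3 CPM, with 0 counts in exAM (1.81 ± 0.30, adjusted p = 0.224). Cd163l1, a scavenger receptor cysteine-rich protein known from gamma-delta T cells, read 48.2 and 52.9 CPM against 12.3 and 22.6 CPM in tAM and 0.44 and 0.69 CPM in HostAM. The transcription factor gene Satb1, the chemokine receptor Ccr2 and the cytokine gene Lta were also higher in both texAM pools. The part of T lymphocyte RNA in these differences was not tested.

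Other marker lists differed less. Granulocyte and mast cell markers summed to 527 and 347 CPM in texAM against 288 and 303 CPM in tAM, with 4 of 9 tested members higher at an unadjusted p under 0.05. S100a9, a calprotectin subunit of neutrophils, read 64.6 and 25.8 CPM against 8.36 and 7.02 CPM. Without texAM replicate 1, 1 of the 9 was higher and the list's median was 0.32 in place of 0.86. Lung epithelial markers summed to 1288 and 1025 CPM against 1028 and 1015 CPM, and 3 of 31 were higher, namely Aldh1a1, Scgb3a1 and Cbr2 (1 to 7 with a library left out). B lymphocyte markers summed to 236 and 238 CPM against 245 and 306 CPM, most of it from Cd22, which both groups and exAM carry. Dendritic cell markers summed to 1644 and 1599 against 1499 and 1594 CPM. Monocyte and other macrophage markers, at 2579 and 2615 against 2381 and 2635 CPM, overlapped between the groups in their sum. Of their 25 tested members, 5 were higher and 0 lower at that p, with a median log2 change of 0.39. Both texAM pools lay above both tAM pools in 9 members and below in 3, beside 21.9% and 20.2% of all genes. The list's median was 0.27 to 0.64 with a library left out. The interstitial macrophage and complement gene C1qa stood at 4.70 and 1.71 CPM against 4.87 and 2.13 CPM, and Ly6c2 of classical monocytes at 1.60 CPM or below.

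**Figure D5:**
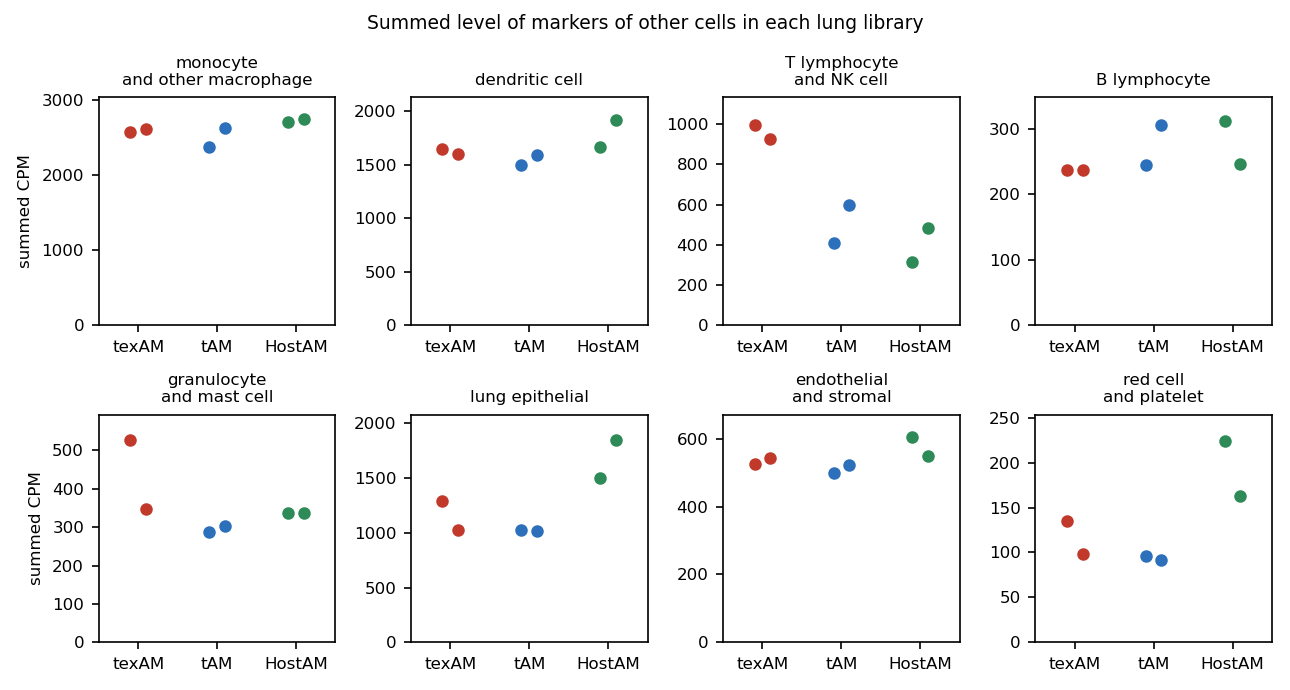
Summed CPM of 8 marker lists in each texAM, tAM and HostAM library, with every axis starting at 0. Sums cover all list members in the deposited table, tested or not. T lymphocyte and NK cell markers are highest in both texAM libraries (997 and 927 CPM), and granulocyte and mast cell markers are highest in texAM replicate 1 (527 CPM).

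Inflammatory genes leaned higher in texAM, with fewer of low p when texAM replicate 1 was left out. Of 33 tested NF-kB targets and inflammatory mediators, 10 were higher and 0 lower at an unadjusted p under 0.05, with a median of 0.32. Both texAM pools lay above both tAM pools in 20 members and below in 4, beside 21.9% and 20.2% of all genes. All 38 listed genes summed to 2916 and 2723 CPM in texAM and 2550 and 2643 CPM in tAM. HostAM, at 2678 and 2741 CPM, overlapped texAM. Il1b read 88.9 and 59.3 CPM in texAM against 32.5 and 37.9 CPM in tAM (log2 change 1.08 ± 0.25, adjusted p = 0.388), and Tnf read 105 and 86.1 against 63.8 and 68.1 CPM. Socs3, a feedback inhibitor of cytokine signalling, read 28.8 and 37.4 against 13.7 and 16.6 CPM, Osm 35.7 and 31.0 against 19.2 and 16.9 CPM, and the prostaglandin synthase Ptgs2 25.1 and 6.16 against 4.76 and 3.26 CPM. Csf1, Traf1, Nfkbia, Clec4e and Nfkb2 were the other 5. Without texAM replicate 1, which also had the highest granulocyte sum, 2 members of this list were higher and 1 lower, and the median was 0.22. Over all genes, 385 were then higher and 218 lower at that p, in place of 765 and 374. In exAM against HostAM the list had a median of -0.90. Of 25 chemokines and receptors, 6 were higher and 0 lower at that p, and the median was 0.41. Ccl3 read 23.9 and 16.5 CPM against 12.4 and 8.65 CPM, and Ccl9 85.1 and 75.9 against 62.2 and 58.7 CPM. Ccl2 read 6.37 and 3.54 CPM against 0.35 and 2.38 CPM and 136 and 101 CPM in exAM. Without texAM replicate 1, 3 chemokine list members were higher, with a median of 0.28. Irf4 and the STAT5 target Cish, in the list of CSF receptors and signalling, read 87.0 and 75.3 against 42.9 and 43.5 CPM and 108 and 108 against 71.2 and 83.9 CPM. That list had 5 of 21 members higher and Stat5a lower, and 2 to 7 higher and 0 lower with a library left out. The part of lymphocyte and granulocyte RNA in these lists was not tested.

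Lists of metabolism, antioxidants, interferon response and the MITF family had medians between -0.09 and 0.02, with some members higher at low p. Of 32 glycolysis and hypoxia genes, 6 were higher at an unadjusted p under 0.05, 1 was lower, and the median was 0.02. All 6 were called higher in exAM against HostAM, as were 20.9% of all tested genes. The whole list had a median of 0.86 in exAM against HostAM. The glucose transporter Slc2a1 read 115 and 104 CPM against 61.9 and 93.5 CPM, with 535 and 503 CPM in exAM, and Hif1a 190 and 170 against 141 and 107 CPM. Of 33 NRF2 targets and antioxidant genes, 3 were higher and 0 lower at that p. They were both subunit genes of the enzyme that makes the precursor of glutathione, Gclm (99.0 and 77.8 against 64.8 and 56.7 CPM) and Gclc (121 and 114 against 94.7 and 78.0 CPM), and the cystine transporter Slc7a11 (226 and 146 against 132 and 90.9 CPM). HostAM held more Slc7a11 than either group, at 276 and 425 CPM. Of 46 interferon-stimulated genes 4 were higher at that p, 1 was lower, and the median was -0.09. Of 20 genes of the MITF family and osteoclast-like cells, 4 were higher and 0 lower. Of 19 arginine and polyamine genes, Azin1, Ass1 and Arg1 were higher, and all of these were called higher in exAM too. The arginine and polyamine list had a median of 0.49 in exAM against HostAM. Without texAM replicate 1, the members higher at that p numbered 1 for glycolysis and hypoxia, 0 for NRF2 targets (2 lower), 1 for the MITF family (1 lower) and 0 for arginine and polyamines. The interferon-stimulated genes higher at that p numbered 1 to 6 with a library left out. Collagen IV genes went the other way from culture, with Col4a1 at 0.42 and 4.68 CPM in texAM, 8.36 and 9.53 CPM in tAM and 29.0 and 19.6 CPM in exAM, and Col4a2 likewise.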

How the data were processed

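Bulk RNA-seq libraries of mouse alveolar macrophages were made after isothermal amplification (SPIA) of cDNA from 2 ng of RNA, per the labels' protocols. The authors deposited whole-number counts of reads per Ensembl gene. Bowtie, HTSeq 0.6.1, R 3.3 and GRCm38 (mm10) are named in the submitters' processing notes, and whether duplicate reads were removed or strand was used is not given in the sources used here. From these counts, edgeR 4.0.16 in R 4.3.3 was run on all 8 libraries, with filterByExpr (minimum 10 counts), TMM scaling and a robust quasi-likelihood F test with 1 coefficient per group. The call threshold was 0.05 after Benjamini-Hochberg adjustment over all tested genes. Residual degrees of freedom were 4, and the biological coefficient of variation was 0.22. Intervals cover the model's error at 95%. Floors of 3 counts cover counting error only. DESeq2 1.42.0 and other filters, scalings and sets of libraries were alternatives. Of the deposited IDs, 87.4% were found in GENCODE M21, which gave positions and lengths.

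Named genes were, by rule, the largest called changes, called list members, and members of the identity, marker and sex-linked lists. As 1 gene was called, most named genes and all list examples were chosen after their values were seen. The 38 programme and 10 marker lists, and the comparison itself, were chosen with earlier results of these data known. The fit was tested on simulated counts. The replicate numbers are not said to pair pools. Some members of the lists are counted but not reported by name here.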

Additional observations from a re-analysis of the deposited data

How the results depend on the processing

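Arap2 kept its direction under every alternative run, and its log2 change was 3.12 in the fits of the 4 compared and of the 6 lung libraries, where it lost its call. Leaving out each of the 4 libraries gave 2.83 to 3.39. The number of genes called higher, 1 as reported, was 198 with no filter beyond a count in 1 library, 62 with DESeq2's Wald test, 2 in the 4-library fit (Il18r1 and Il7r), 0 in the 6-library fit, 0 against a 2-fold minimum and 0 to 2 when a library was left out, the 2 being Arap2 and Msr1 without texAM replicate 2. Genes called lower, 0 as reported (374 at an unadjusted p under 0.05), numbered 40 with no filter and 11 with DESeq2. All 73 genes that DESeq2 called were also called with no filter. Called members of the gene lists, 0 as reported, numbered 49 with no filter, 16 with DESeq2, 1 in the 4-library fit and 0 to 1 with a library left out. Called genes that were also called the same way in exAM against HostAM, 1 as reported, numbered 101 with no filter, 34 with DESeq2 and 0 to 2 with a library left out. The slope on the exAM over HostAM change was -0.0228 with no filter and -0.017 to -0.0027 with a library left out. The cause of these shifts was not tested.

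With the replicate number as a block, 0 genes were called higher and 0 were called the same way in exAM against HostAM, and Arap2 had a log2 change of 3.14 (adjusted p = 0.0957). Deviations of texAM and tAM libraries of the same number correlated at 0.075, so the numbers are not taken to pair the pools.

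Counts added after seeing the data were steadier for precision than for low p. Genes with an interval within 2-fold stayed within 1.5 times of 8032 under all alternatives. Genes higher and lower at an unadjusted p under 0.05, 765 and 374 as reported, numbered 1271 and 587 with no filter and 385 and 218 without texAM replicate 1, and 569 were lower in the 4-library fit. The low depth limits genes under 10 CPM.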

Other observations

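Circadian regulators and coagulation genes were not described above. Of 22 clock genes, 3 were higher, Rora and Nr1d2 among them, and 0 lower in texAM at an unadjusted p under 0.05, with a median log2 change of 0.14. Rora, a nuclear receptor that activates clock genes, read 273 and 233 CPM in texAM, 206 and 184 CPM in tAM and 130 and 140 CPM in HostAM (log2 change 0.37 ± 0.12, adjusted p = 0.481), and Nr1d2, a repressor of the same clock, read 26.1 and 23.04 against 12.9 and 16.6 CPM. Of 18 coagulation and fibrinolysis genes, 4 were higher and 1 lower, and with a library left out 1 to 3 were higher. For the clock genes that count was also 1 to 3. Thbd, thrombomodulin, read 64.5 and 85.8 CPM against 55.0 and 57.7 CPM.

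The stress-response gene Sesn2 was lower in texAM, at 33.4 and 29.1 against 41.0 and 62.8 CPM, and was the only 1 of 32 tested genes of the integrated stress and unfolded protein response at an unadjusted p under 0.05. Of 38 chromatin modifiers, the deacetylase Sirt1 was higher at that p (47.2 and 44.5 against 37.6 and 29.1 CPM) and 0 were lower, and 34 had 95% intervals within 2-fold.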
